A study of Mus musculus with 21 samples.

Results

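The brains of E4H mice were compared with those of E3H mice in the absence of human tau. Both are targeted replacement lines, in which human APOE4 or APOE3 stands in place of mouse Apoe on both chromosomes, kept on a C57BL6 background. The comparison used 3 E4H and 3 E3H mice of the 21 mice sequenced, all 6 aged 9 to 10 months and without the PS19 transgene, and every gene that passed a filter on low counts, which left 20958 of 55401 genes. The data are poly(A) RNA of pulverized forebrain. Other groups are drawn on below: 3 E2H mice, the homozygous APOE2 line of the same kind and age, and 4 PS/E3H and 4 PS/E4H mice, which carry the same human APOE alleles together with a transgene for P301S human tau, have part of their ancestry from a B6/C3H stock, and were killed at paralysis. No group had mouse Apoe alone, so each value compares one human allele with the other. In bulk tissue, fewer cells of a type and less RNA per cell cannot be told apart.

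APOE is a lipid carrier that astrocytes, and microglia when activated, secrete in the brain, and neurons and glia take up the lipidated particles through lipoprotein receptors on their surface. The human alleles differ in single amino acids that alter receptor and lipid binding, and APOE4 is the main common genetic risk factor for late-onset Alzheimer's disease. Astrocytes answer injury and inflammation with a set of reactive genes, of which Serpina3n is one of the best known, and microglia and vascular cells have response programmes of their own.

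The libraries were deep and alike. Total counts were 60394625 to 75932183 in E3H mice and 66983058 to 74756427 in E4H mice, and mitochondrial genes took 7.34% to 8.38% of counts in E3H and 8.25% to 8.71% in E4H. All 29 neuronal, all 18 astrocyte and all 12 striatal marker genes had a mean above 1 FPKM (the authors' values, scaled for transcript length and depth), against 3 of 12 cerebellar and hindbrain genes and 2 of 8 pituitary genes. Mouse Apoe, whose coding part the human allele replaces, kept 764 to 933 counts in E3H mice and 880 to 1027 in E4H mice, which overlap, and a row for the human gene was not used here. By sex-linked genes, 1 library stood apart from the rest of its group: E4H replicate 3 held 10256 counts of 4 Y-linked genes and 189 of Xist, the RNA that coats the inactive X chromosome, whereas the other 5 mice held 4 to 22 counts of the Y-linked genes and 22843 to 36358 of Xist. That is the pattern of 1 male and 5 females, while the study's methods describe the mice as male with a single female among the E4H mice. The comparison therefore sets 3 mice of one sex against 2 of that sex and 1 of the other. Other E4H mice stood apart in regional genes. The summed level of hypothalamic peptide genes was 23.4 CPM (counts scaled to a common library size) in E4H replicate 2, against 80.4 and 76.9 in the other two E4H mice and 76.6 to 106 in E3H, and cerebellar and hindbrain genes were at 68.0 CPM in that mouse, against 120 and 130 in the other two and 94.8 to 124 in E3H. In E4H replicate 1, choroid plexus and ependymal genes were at 1344 CPM, against 893 and 925 in the others and 961 to 1243 in E3H, and pituitary hormone genes at 11.4 CPM, against 2.84 and 3.30 in the others and 7.07 to 7.45 in E3H. The part of these differences in the results below was not tested.

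Few genes separated the lines. At an adjusted p under 0.05 (from edgeR's quasi-likelihood F test, Benjamini-Hochberg adjusted, as for each adjusted p given below) and a fold of at least 2, 21 genes were called, which is 0.1% of those tested. Another 13 passed the adjusted p with a smaller fold, making 34 genes, or 0.162%, of which 15 were higher in E4H mice (0.0716% of all genes) and 19 lower (0.0907%). Without a correction, 6.67% of all genes had a p under 0.05, 698 higher and 699 lower, and the median log2 fold change of all genes was -0.0025. All 34 genes had no overlap between the 3 E4H and the 3 E3H mice, as did 12.6% of all genes, 6.52% with E4H higher and 6.11% with E4H lower. Left out 1 at a time, the 6 mice gave fits in which 10 of the 21 genes were called every time. Without E4H replicate 3 the fit called 17 genes, of which 14 were among the 21, and Aim2, Gm5815, Dnah6, Oscar, Nat8f5, Gm15510 and Gm21860 then had adjusted p values of 0.0837 to 0.207. With all 21 mice in a fit 17 genes were called, and with the 9 mice without tau 16, of which 14 in each case were among the 21; Gm45062, Gm42878, Gm15494, Gm21860, Dnah6 and Gm5815 lost the call in both, Serpina3m in the first and Aim2 in the second.

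**Figure D1:**
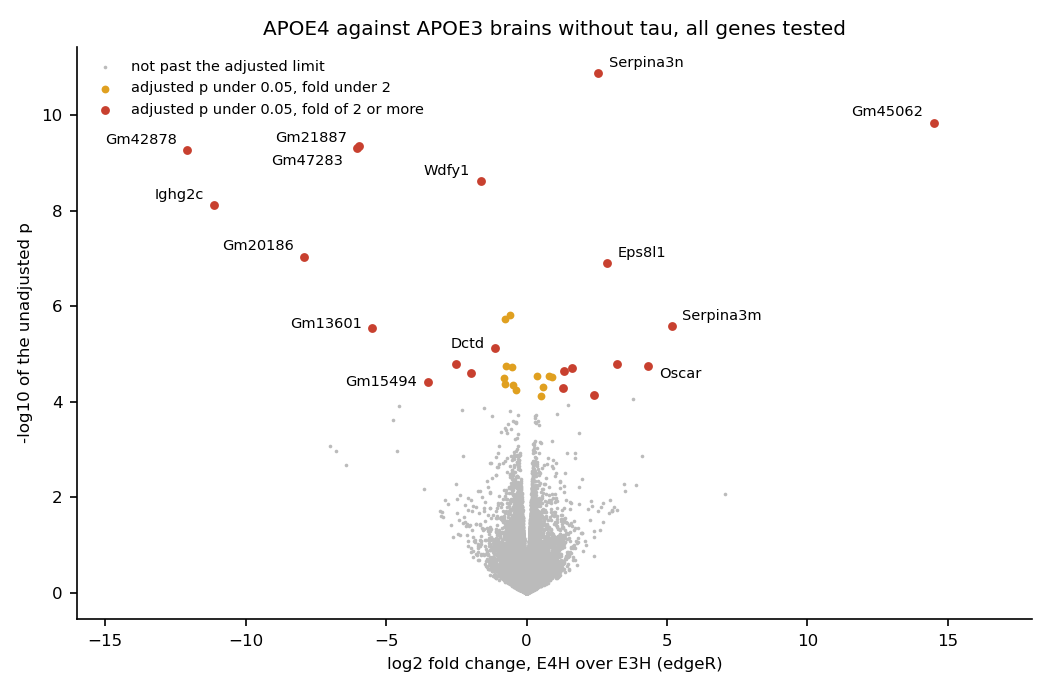
Every gene tested between 3 E4H and 3 E3H mice, with the log2 fold change on the horizontal axis (positive, higher in E4H) and the negative log10 of the unadjusted edgeR p on the vertical axis. Red points are the 21 called genes and ochre points the 13 that passed the adjusted p with a smaller fold; the positions of Gm45062, Gm42878 and Ighg2c are fitted values against a group without a count and give no size.

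Serpina3n had the smallest p of all genes. It encodes a secreted serine protease inhibitor that reactive astrocytes make, and lies on chromosome 12 (GRCm38, 104406729 to 104414329, plus strand). The 3 E3H mice had 26.3, 28.1 and 25.0 CPM and the 3 E4H mice 159, 138 and 170. The lowest E4H mouse thus lay far above the highest E3H mouse, and the E2H mice, at 32.9, 32.0 and 28.2, lay beside E3H. The gene rose 5.88-fold in E4H (log2 fold change 2.56, SE 0.08, adjusted p = 2.78e-07), and against E2H it also rose (log2 2.32, adjusted p = 5.86e-05). Scaled for transcript length, its level was 11.6 to 13.3 FPKM in E3H and 62.1 to 75.8 in E4H, so that in E4H it passed the 51.3 to 51.5 FPKM of Gfap, the filament protein of astrocytes, which was at 53.9 to 57.8 in E3H.

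The neighbouring Serpina3m (chromosome 12, 104338486 to 104394257, plus strand) also rose. Its 3 E3H mice had 0.109, 0.207 and 0 CPM and its E4H mice 3.48, 3.80 and 3.87, a log2 fold change of 5.18 (SE 0.57, adjusted p = 0.00455), and with all 21 mice in a fit its log2 fold change was 5.16 with an adjusted p of 1. Of the 11 genes listed for the Serpina3 family, 4 passed the filter on low counts, and the other two tested did not pass: Serpina3g, with a log2 fold change of -0.15 (adjusted p = 0.98), and Serpina3k, with 0.62 (adjusted p = 0.963). These paralogs resemble each other: 6.9% of the distinct 50-base windows in Serpina3n transcripts also occur in transcripts of other genes, and 19.1% of those in Serpina3m, most of them in Serpina3k, with which Serpina3m shares its annotated start. The values of Serpina3m are therefore less certain than those of Serpina3n. In PS/E4H mice it was all or none, at 14.3, 0, 10.3 and 0 CPM.

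The rest of the reactive astrocyte programme was not higher in E4H mice. Of 13 pan-reactive astrocyte genes 12 were tested, and only Serpina3n passed the adjusted p. At an unadjusted p under 0.05, a limit that 3.33% of all genes passed as higher and 3.34% as lower, 4 others lay lower in E4H and none higher (2 lower without E3H replicate 2), and the median of the 12 log2 fold changes was -0.22. Vim, an intermediate filament gene, had 45.3, 53.7 and 49.2 CPM in E3H and 41.5, 40.2 and 39.8 in E4H (log2 -0.29, adjusted p = 0.331), and S1pr3, a sphingosine phosphate receptor, had a log2 fold change of -0.36 (adjusted p = 0.542). The 18 astrocyte markers had a median of -0.001, with 1 at an unadjusted p under 0.05. Among 11 tested of 12 A1 astrocyte genes, a set named for astrocytes exposed to inflammatory microglia, H2-D1 passed the adjusted p, 3 were lower at the unadjusted limit (1 without E4H replicate 3 or E3H replicate 1), and the median was -0.21; for the 11 tested of 12 A2 genes it was -0.26.

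**Figure D2:**
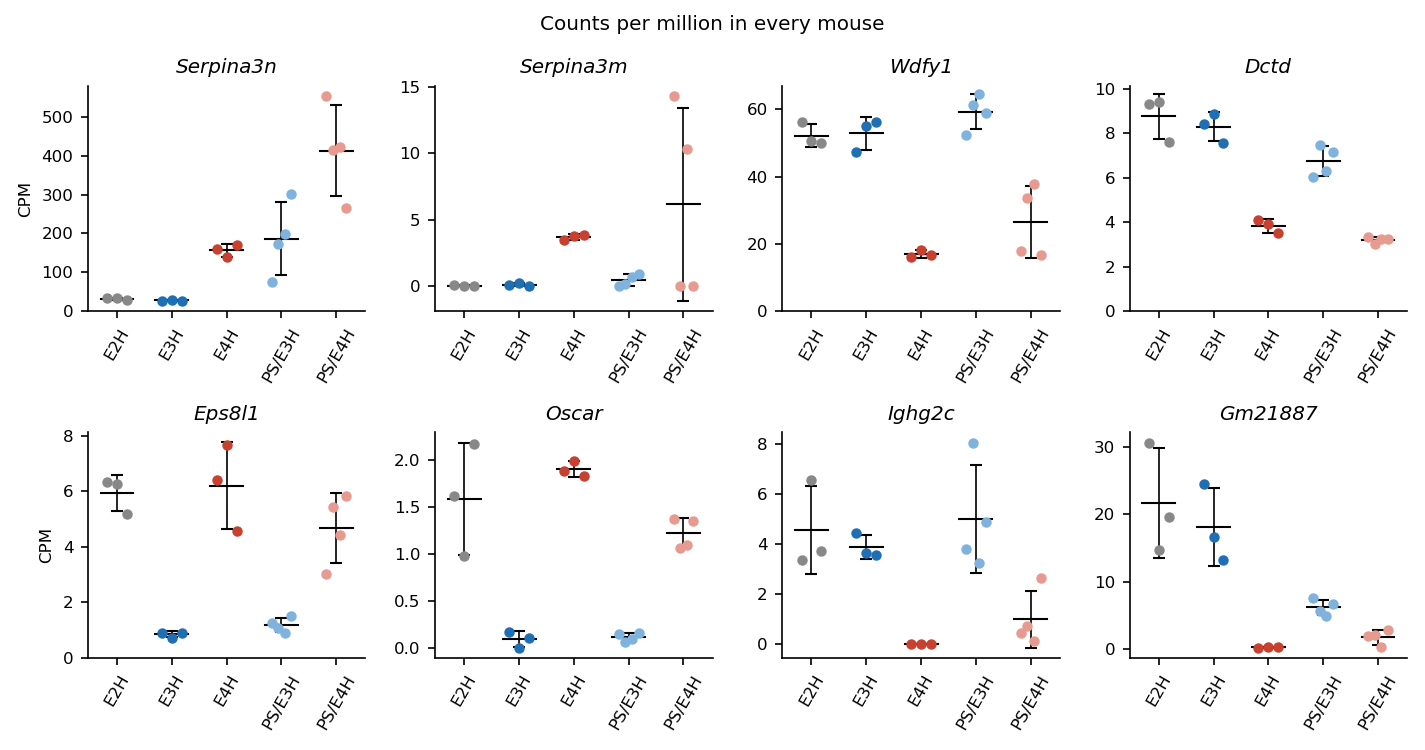
CPM of 8 called genes in every mouse of 5 groups, each panel with its own axis; points are mice, bars the mean and whiskers 1 SD (n = 3 for E2H, E3H and E4H, n = 4 for PS/E3H and PS/E4H). For Serpina3n, Serpina3m, Wdfy1, Dctd, Ighg2c and Gm21887 the E2H mice lie with E3H, and for Eps8l1 and Oscar they lie with E4H.

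Wdfy1 and Dctd fell in E4H mice. Wdfy1 (chromosome 1, 79702262 to 79776143, minus strand) encodes an endosomal protein that takes part in Toll-like receptor signalling. It had 47.3, 55.0 and 56.2 CPM in E3H and 16.1, 18.3 and 16.6 in E4H, without overlap, and E4H was 3.12-fold lower (log2 -1.64, SE 0.09, adjusted p = 8.37e-06). Dctd (chromosome 8, 48099092 to 48153233, plus strand), the deaminase that turns dCMP into dUMP for thymidine synthesis, had 8.41, 8.87 and 7.57 CPM in E3H against 4.09, 3.92 and 3.50 in E4H (log2 -1.11, SE 0.14, adjusted p = 0.0114). Both were lower than in E2H as well, at adjusted p values of 0.000184 and 0.018. Dctd was alone among 26 pyrimidine nucleotide genes in passing the adjusted p, and the median of the 26 was -0.02. Its adjusted p without E4H replicate 3 was 0.049987.

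Ighg2c and Ighm, a pair of immunoglobulin heavy chain constant genes, were lower in E4H mice. Ighg2c, the constant region of an IgG2 heavy chain (chromosome 12, 113285325 to 113288932, minus strand), had 4.45, 3.64 and 3.58 CPM in E3H mice and no count in any E4H mouse. Set against 3 counts per library it was at least 93.1-fold lower in E4H (adjusted p = 2.29e-05), and 5.49% of its 50-base windows occur in Ighg2b. Ighm, the constant region of IgM, lies nearby on the same chromosome and was reduced less, from 28.9, 31.8 and 28.1 CPM to 16.5, 20.3 and 17.1 (log2 -0.73, adjusted p = 0.0203). When mice were omitted 1 at a time, Ighm passed in 1 of 6 fits, with log2 fold changes of -0.83 to -0.67, and had an adjusted p of 1 with all 21 mice in a fit. In E2H mice, Ighg2c was at 3.36, 6.58 and 3.74 CPM, against 3.58 to 4.45 in E3H.

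Aim2, Fbxo5 and Dnah6 rose and Nat8f5 fell, all from low levels. Aim2, the cytosolic DNA sensor that builds an inflammasome (chromosome 1), had 1.66, 1.45 and 1.24 CPM in E3H and 3.73, 3.75 and 3.53 in E4H (log2 1.34, adjusted p = 0.0227). It was the single one of 13 cytosolic DNA sensing genes to pass, and the median of the 13 was 0.05. Fbxo5, an inhibitor of the anaphase-promoting complex (chromosome 10), had 1.16, 1.09 and 1.26 CPM in E3H and 3.52, 4.47 and 2.78 in E4H (log2 1.61, adjusted p = 0.021). Dnah6, a dynein heavy chain of cilia (chromosome 6), had 2.50, 4.44 and 3.14 against 8.61, 8.84 and 7.62 CPM (log2 1.31, adjusted p = 0.0348). Nat8f5, of a family of N-acetyltransferases (chromosome 6), had 1.22, 1.40 and 1.12 CPM in E3H and 0.239, 0.213 and 0.204 in E4H (log2 -2.51, adjusted p = 0.0203). The groups did not overlap for any of these. When each mouse was omitted in turn, Aim2 and Nat8f5 were called in 0 of 6 fits, and Fbxo5 and Dnah6 in 1 each. The log2 fold changes in those fits were 1.23 to 1.44 for Aim2, -2.59 to -2.42 for Nat8f5, 1.42 to 1.77 for Fbxo5 and 1.14 to 1.57 for Dnah6.

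A cluster of 5 of the 34 genes lay on chromosome 7, between positions 3609813 and 5057116, some 15 Mb from Apoe. Eps8l1, which is related to the actin regulator Eps8 (4460674 to 4480487, plus strand), had 0.911, 0.718 and 0.912 CPM in E3H and 6.40, 7.67 and 4.56 in E4H, a 7.29-fold rise (log2 2.87, SE 0.23, adjusted p = 0.000297). Oscar, a collagen-binding receptor first described in osteoclasts (3609813 to 3616157, minus strand), had 0.163, 0 and 0.104 CPM against 1.88, 1.99 and 1.83 (log2 4.34, SE 0.59, adjusted p = 0.0203). The antisense transcript Gm15510 also rose (log2 3.22), while the antisense transcript Gm15494 fell (log2 -3.52) and Rdh13, a mitochondrial retinol dehydrogenase, fell from 35.6, 35.6 and 32.8 CPM to 19.1, 22.1 and 20.2 (log2 -0.76, adjusted p = 0.00347). When each mouse was omitted in turn, Eps8l1 was called in 6 of 6 fits, Oscar and Gm15510 in 2 each and Gm15494 in 1. The 2 other tested members of the EPS8 family did not differ detectably: Eps8 had a log2 fold change of -0.05 (SE 0.08) and Eps8l2 one of 0.01 (SE 0.19).

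For all 5 of these chromosome 7 genes, E2H mice lay nearer to E4H than to E3H. Eps8l1, for example, had 6.33, 6.29 and 5.20 CPM in E2H, and its log2 fold change was 2.81 for E2H over E3H (adjusted p = 0.000373) and 0.06 for E4H over E2H (adjusted p = 0.922). Rdh13 and Gm15510 likewise passed the adjusted p in E3H against E2H and not in E4H against E2H; for Oscar and Gm15494 the E2H against E3H difference had adjusted p values of 0.096 and 0.0655. Gm15494 overlaps Eps8l1 on the opposite strand, and whether the counting used strand is not given in the sources used here, so reads of the pair cannot be told apart with certainty. The 1.44 Mb interval held 62 tested genes, of which 11 had an unadjusted p under 0.05, as did 7.31% of the tested genes of chromosome 7. Its bounds were set by the 5 genes, which are among the 11. Around Apoe itself, none of the 17 genes tested within 200 kb passed the adjusted p, and 1, the adhesion molecule gene Bcam, passed the unadjusted one (adjusted p = 0.591).

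**Figure D3:**
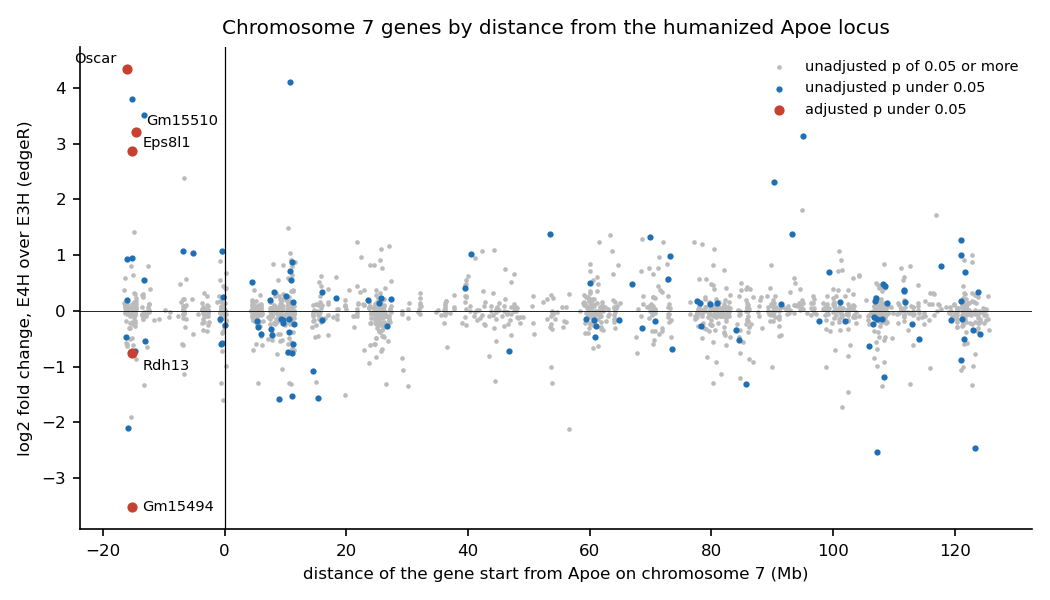
Log2 fold change, E4H over E3H, of every tested chromosome 7 gene against the distance of its start from Apoe in Mb. Red points passed the adjusted p of 0.05 and blue points the unadjusted p; the 5 red points run from Oscar at -16.09 Mb to Gm15510 at -14.65 Mb, and none lies beside Apoe at 0.

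Chromosome 6 held 9 of the 34 genes, 26.5% of them, where it holds 5.07% of the genes tested, and 10.4% of its tested genes had an unadjusted p under 0.05. The 9 are Pon2, Umad1, Gm45062, Gm20186, 0610030E20Rik, Dnah6, Nat8f5, Anxa4 and Vwf, and they spread along most of the chromosome, from position 5264147 to 125686679. Of all 34 genes, 17 had another of the 34 within 1 Mb. The 17 are the 5 on chromosome 7, the Serpina3 pair and the immunoglobulin pair on chromosome 12, Umad1 beside Gm45062, Gm47283 beside Gm21860, Dnah6 beside 0610030E20Rik, and Anxa4 beside Nat8f5. Some of these are not separate loci: Gm45062 spans Umad1, and Gm15494 overlaps Eps8l1. The 9 on chromosome 6 count both Umad1 and Gm45062. How often any 34 of the tested genes lie this close was not worked out. Positions such as these were looked at after the genes were known, and no test was made of them.

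Several of the called genes with numbered names overlap or resemble another gene. Gm45062 spans both Umad1 and Glcci1 on the plus strand of chromosome 6 (8259450 to 8597480), and 92.6% of its 50-base windows occur in Glcci1. It had no count in E3H mice and 47.9, 42.2 and 31.5 CPM in E4H, at least 952-fold higher (adjusted p = 1.51e-06, but 1 with all 21 mice in a fit and 0.258 with the 9 without tau). Glcci1, a gene induced by glucocorticoids, mirrored it, with 53.8, 47.3 and 58.9 CPM in E3H and 3.36, 11.9 and 16.8 in E4H (adjusted p = 0.0779). Summed over the 3 genes, the mice had 101, 92.9 and 109 CPM in E3H and 83.3, 86.9 and 85.3 in E4H, a log2 fold change of -0.25 (SE 0.06, adjusted p = 0.359).

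Gm42878 showed the same with Adam1a and Mapkapk5 on chromosome 5 (121518613 to 121545482). It had 8.01, 7.77 and 6.98 CPM in E3H and no count in E4H, at least 182-fold lower (adjusted p = 2.28e-06, but 0.793 with all 21 mice in a fit and 0.109 with the 9 without tau), and 98.9% of its windows occur in Adam1a. The sum of the 3 genes was 36.3, 36.8 and 32.6 CPM in E3H and 35.4, 38.1 and 30.4 in E4H, which overlap (log2 -0.03, SE 0.09, adjusted p = 0.983). Gm5815, a processed pseudogene on chromosome 17 with 59.8% of its windows in Glcci1, rose from 0.517, 0.207 and 0.248 CPM to 1.30, 1.97 and 1.98 (log2 2.42, adjusted p = 0.0456). For Gm45062 and Gm42878, then, the total of the overlapping genes did not pass the test, and for Gm5815 the part that reads of Glcci1 may have in its values was not tested.

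Gm21887 and Gm47283 are near copies on the X and the Y chromosome, with 59.7% of the windows of Gm21887 also in Gm47283, and both fell. Gm21887 had 24.6, 16.6 and 13.3 CPM in E3H and 0.209, 0.292 and 0.326 in E4H (log2 -6.03, adjusted p = 2.28e-06). Summed, the pair had 52.6, 35.8 and 30.2 CPM in E3H and 0.657, 0.505 and 0.706 in E4H, so the fall did not depend on how reads were divided between them (log2 -5.99, SE 0.24, adjusted p = 9.13e-07). E4H replicate 3, the library with Y-linked counts, lay with the other two E4H mice. Gm21860, on the Y chromosome and with 100% of its windows in G530011O06Rik, also fell (log2 -1.97). Counts placed on these Y-linked models were present in mice that lacked the other Y-linked RNAs.

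A further pair of noncoding RNAs were nearly absent from E4H mice. Gm20186, a lincRNA on chromosome 6, had 1.56, 1.55 and 1.49 CPM in E3H and a single count in 1 of 3 E4H mice, a ratio of 331 with a counting interval of 58.9 to 13099 (adjusted p = 0.000239). Gm13601, an antisense transcript on chromosome 2, had 1.43, 1.32 and 1.88 CPM in E3H and 0.0298, 0 and 0.0678 in E4H (log2 -5.50, adjusted p = 0.00466). The E2H mice had 1.63, 2.09 and 1.61 CPM of Gm13601, again at the level of E3H.

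The 13 genes with smaller folds were mostly well expressed, but many of the 34 did not hold when a mouse was omitted. With a mouse left out, only 15 to 18 of all 34 genes kept an adjusted p under 0.05. Ulk2 passed in each of those fits, and H2-D1 did not pass without E4H replicate 3. Ulk2, a kinase that starts autophagy, fell from 119, 113 and 126 CPM to 77.1, 74.9 and 84.0 (log2 -0.60, SE 0.06, adjusted p = 0.00318). Pon2, an intracellular paraoxonase with antioxidant activity, fell from 51.0, 52.3 and 51.6 CPM to 39.4, 34.1 and 34.0 (log2 -0.53, adjusted p = 0.0203), and was also lower than in E2H (adjusted p = 0.0315). Vwf, the von Willebrand factor of endothelial cells, fell from 23.3, 21.8 and 18.7 CPM to 13.5, 12.5 and 10.8 (log2 -0.80, adjusted p = 0.0259). H2-D1, a classical MHC class I heavy chain, fell from 61.3, 63.4 and 59.3 CPM to 47.8, 47.2 and 47.9 (log2 -0.37, adjusted p = 0.0366), with 12.8% of its windows in other genes.

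Among those that rose, Anxa4, an annexin that binds membrane phospholipids, went from 5.66, 5.79 and 6.12 CPM to 10.1, 10.05 and 10.2 (log2 0.78, adjusted p = 0.0249). Nudt3, a diphosphoinositol polyphosphate hydrolase, went from 228, 215 and 223 CPM to 283, 281 and 293 (log2 0.36, adjusted p = 0.0249). The others that rose were Bex1 (log2 0.57), the splicing factor gene Snrpd1 (0.51) and 0610030E20Rik (0.90), and the antisense transcript Gm13375 (-0.78) and Umad1 (-0.49) fell.

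The E2H mice show which line stands apart. Of the 21 called genes, 11 passed the adjusted p in E4H against both E3H and E2H, with no difference passing between E3H and E2H; 2, Eps8l1 and Gm15510, passed in E3H against both others; and for 8, E2H passed against neither. The E2H mean was nearer to E3H for 16 of the 21 and nearer to E4H for 5. These comparisons share the E3H or the E4H mice with the main one, and in them 0.178% of all genes passed for E2H against E3H and 0.216% for E4H against E2H. Serpina3n, Wdfy1, Dctd, Ighg2c, Serpina3m, Nat8f5, Dnah6, Gm13601, Gm20186, Gm21887 and Gm47283 are the 11 in which E4H stood apart.

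The same contrast in paralyzed mice, PS/E4H against PS/E3H, shares no animal with the comparison. PS/E4H replicates 1 and 4 held 8284 and 8900 counts of the Y-linked genes and 164 and 168 of Xist, the pattern of males. The other PS/E4H mice and all PS/E3H mice held 8 to 34 and 14782 to 26201, the pattern of females. Mice with Y-linked RNA thus lay on the APOE4 side in both contrasts, and the part of sex was not tested. In the paralyzed mice 4 genes were called of 20332 tested, 0.0197%, and all 4 were among the 21: Eps8l1, Oscar, Gm15510 and Dctd. Of the 21, 20 were tested, and all 20 had the sign they had without tau; 18 of the 20 had an unadjusted p under 0.05, where 6.51% of all genes did (2.94% higher and 3.58% lower), and for 15 the PS/E4H and PS/E3H mice did not overlap in that direction, as was so for 3.80% of all genes, 1.75% with PS/E4H higher and 2.05% with PS/E4H lower. Of the 13 genes with smaller folds, 11 kept their sign and 5 had an unadjusted p under 0.05. The 2 exceptions were 0610030E20Rik (log2 -0.09) and H2-D1 (0.24).

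Dctd also fell with tau, from 6.05, 7.49, 6.30 and 7.14 CPM in PS/E3H to 3.33, 3.01, 3.26 and 3.24 in PS/E4H (log2 -1.06, SE 0.14, adjusted p = 0.0405). Serpina3n was higher in every PS19 mouse than in any mouse of its own APOE line without tau, at 72.9, 172, 198 and 302 CPM in PS/E3H and 554, 414, 423 and 264 in PS/E4H, and the 2 groups overlapped (log2 1.16, SE 0.35, adjusted p = 0.758). Wdfy1 kept apart at 52.3 to 64.5 CPM against 16.8 to 37.9 (log2 -1.15, SE 0.24, adjusted p = 0.535). The difference between the 2 contrasts was tested as an interaction over 22212 genes, and 0 passed the adjusted p with edgeR, 847 had an unadjusted p under 0.05 (3.81%), and DESeq2 gave 9. Of the 21 genes, 9 were among the 847, with Gm21887 having the smallest p of any gene (log2 difference 4.22, adjusted p = 0.427). The 21 were chosen by their difference without tau, which is itself part of the interaction. Their share is therefore not comparable with that of all genes.

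**Figure D4:**
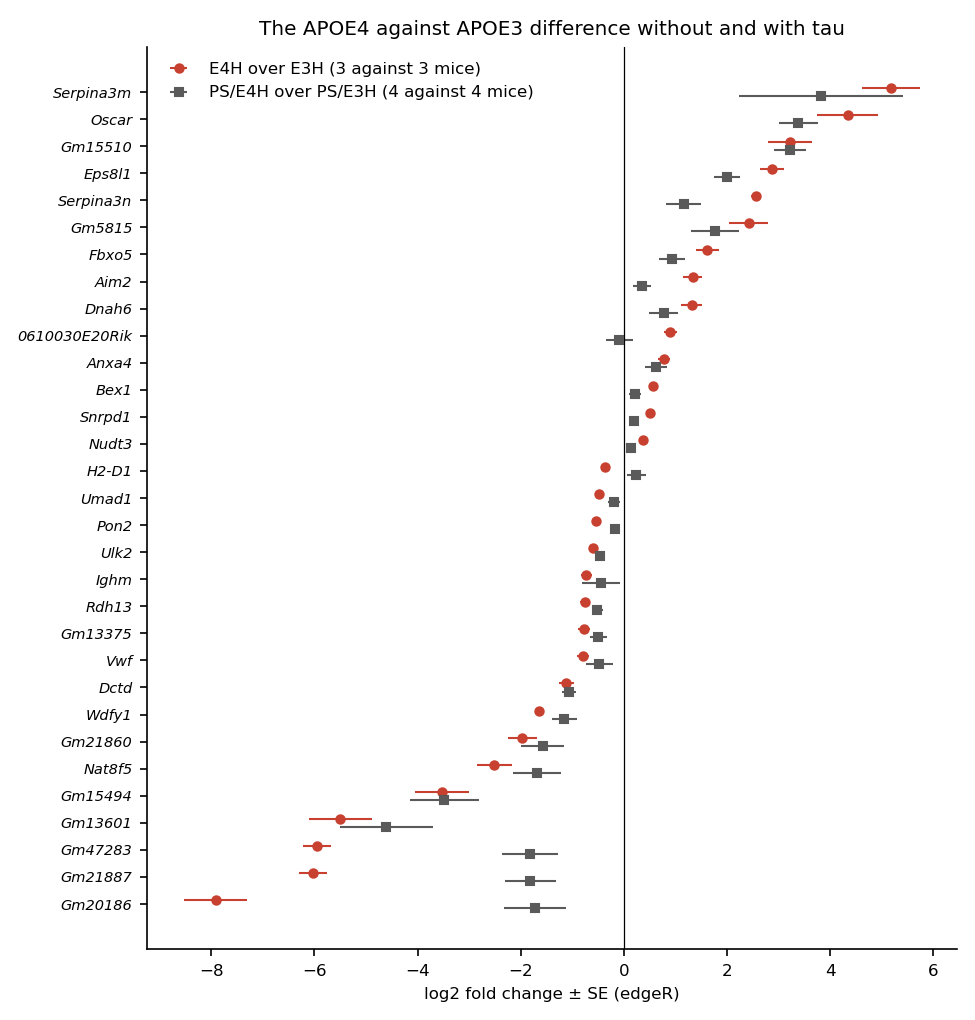
Log2 fold change with its SE for 31 of the 34 genes past the adjusted p, without tau (red circles, 3 E4H against 3 E3H mice) and with tau (grey squares, 4 PS/E4H against 4 PS/E3H mice); Gm45062, Gm42878 and Ighg2c are left out because a group had no count. All genes but 0610030E20Rik and H2-D1 lie on the same side of 0 in both.

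Below the level of single genes past the test, 39 gene lists were described by counts at an unadjusted p under 0.05 and by their medians. Neither median nor counts amount to a test, and 8 lists had a member past the adjusted p. In summed CPM, 5 of the 39 lists lay higher in every E4H mouse than in any E3H mouse and 10 lay lower. The oligodendrocyte and myelin list lay higher: 12 of 18 genes were higher at the unadjusted limit and none lower, with a median log2 fold change of 0.19. Opalin, a myelin membrane protein, had 26.3, 26.0 and 27.0 CPM in E3H and 31.6, 30.6 and 34.2 in E4H (log2 0.28, adjusted p = 0.331). Mbp, myelin basic protein, overlapped between the groups. The count of 12 became 4 without E4H replicate 3, where 2.73% of all genes were higher, 5 without E4H replicate 1 and 6 without E3H replicate 1 or replicate 3, while the median stayed between 0.16 and 0.24. Summed, the list took 5542 to 6087 CPM in E3H, 6030 to 7188 in E4H and 7282 to 7883 in E2H, so E2H mice lay above both. In PS/E4H against PS/E3H, 9 of the 18 were higher and none lower (median 0.21), where 2.94% of all genes were higher.

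All 13 mitochondrially encoded protein genes had a positive log2 fold change, with 9 at the unadjusted limit, a median of 0.19 and no overlap in the summed level (64557 to 72790 CPM in E3H, 73858 to 78326 in E4H). The E2H mice, at 77085 to 102720 CPM, also lay above E3H. mt-Nd2, a subunit of respiratory complex I, had 4185, 3809 and 3821 CPM in E3H and 4873, 4792 and 4591 in E4H (log2 0.27, adjusted p = 0.221). The count was 6 without E4H replicate 3, E3H replicate 2 or E3H replicate 3, and 13 without E3H replicate 1. Nuclear genes of oxidative phosphorylation had 8 of 83 tested at the unadjusted limit, all higher, with a median of 0.06, and cytosolic ribosomal protein genes 6 of 81, all higher, with a median of 0.08. Both counts rested on single mice. With a mouse left out, the members higher numbered 3 to 18 for oxidative phosphorylation, the most without E3H replicate 1 and the fewest without E3H replicate 2 or E4H replicate 3, and 4 to 23 for ribosomal proteins, the most without E4H replicate 2 and the fewest without E3H replicate 2, E3H replicate 3 or E4H replicate 3. Ribosomal protein genes numbered 10 with upper-quartile scaling. In PS/E4H against PS/E3H, 37 of 81 ribosomal protein genes were higher (median 0.21) and 5 of 83 nuclear oxidative phosphorylation genes (median 0.11). None of the mitochondrially encoded genes was at the unadjusted limit there (median 0.09).

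Genes of vessels, matrix and meninges lay lower in E4H than in E3H mice, and those of vessels and meninges lay lower in E2H mice too. Summed, the endothelial and pericyte list took 609 to 627 CPM in E3H, 534 to 559 in E4H and 493 to 556 in E2H. The matrix list took 1310 to 1445 CPM in E3H, 1212 to 1289 in E4H and 1164 to 1428 in E2H. Of 22 endothelial and pericyte genes, 8 were lower at the unadjusted limit and none higher (median -0.11), and the count was again 8 without E4H replicate 3, where 3.28% of all genes were lower. Flt1, a VEGF receptor, had 55.1, 51.1 and 55.5 CPM in E3H and 42.5, 44.8 and 44.1 in E4H (log2 -0.30, adjusted p = 0.154), and Myh11, a smooth muscle myosin, 14.6, 14.96 and 13.02 against 10.8, 9.96 and 10.9 (log2 -0.43, adjusted p = 0.294). Of 39 extracellular matrix and integrin genes, 14 were lower and none higher (median -0.19), with 8 without E4H replicate 3, 8 without E3H replicate 2, 9 without E4H replicate 1 and 5 without E3H replicate 1. Bgn, the proteoglycan biglycan, had 29.3, 28.2 and 24.9 CPM in E3H and 20.4, 20.5 and 18.2 in E4H (log2 -0.48, adjusted p = 0.107), and the collagen VI gene Col6a3 had a log2 fold change of -0.68 (adjusted p = 0.294). In PS/E4H against PS/E3H, 11 of the 39 were lower and none higher (median -0.275), where 3.58% of all genes were lower. None of the endothelial and pericyte genes was at the unadjusted limit there (median -0.049).

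The meningeal and fibroblast list, with markers of tissue that is dissected with the brain surface, lay on the same side as the matrix genes. All 12 of its genes had a negative log2 fold change, 4 at the unadjusted limit, with a median of -0.25; leaving out E4H replicate 2 or 3 left 1, and leaving out E3H replicate 1 left 2. Slc6a13, a GABA transporter of leptomeningeal cells, had 13.9, 15.4 and 14.8 CPM in E3H and 10.7, 8.99 and 10.4 in E4H (adjusted p = 0.135). In PS19 mice no member was at the unadjusted limit and the median was -0.098. The summed level of the list was 201 to 216 CPM in E3H, 152 to 200 in E4H and 90.2 to 177 in E2H. Its part in the lower matrix genes was not tested.

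**Figure D5:**
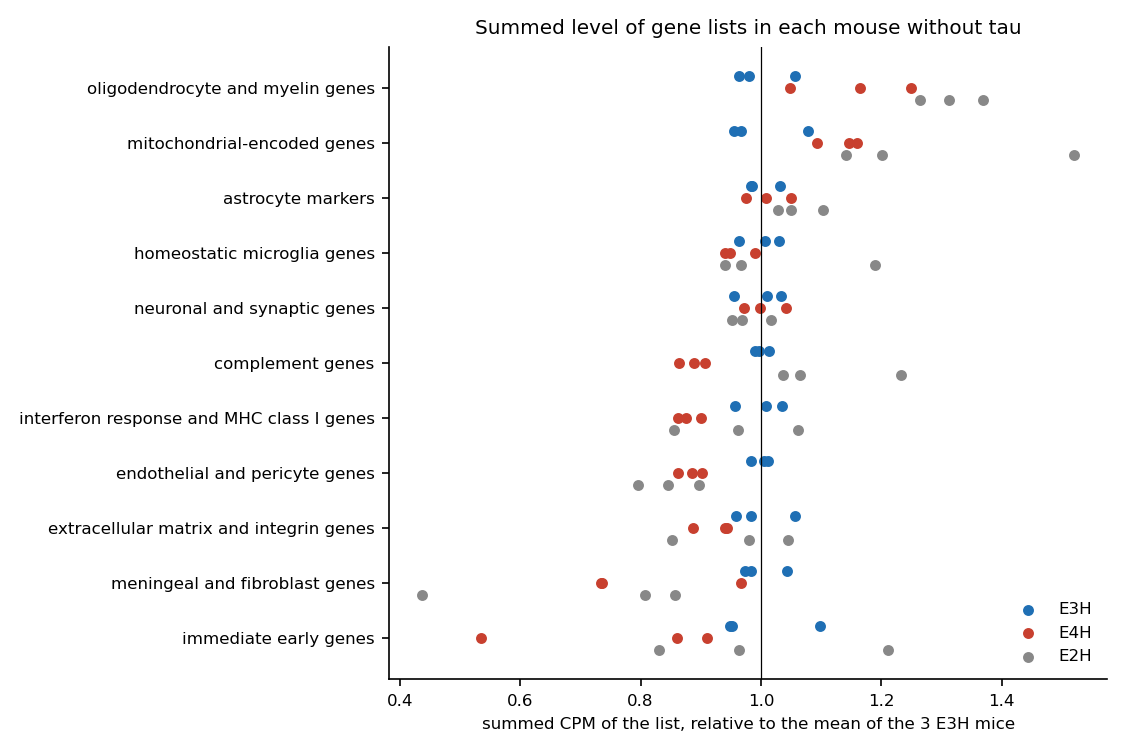
Summed CPM of 11 gene lists in each mouse without tau, divided by the mean of the 3 E3H mice; points are mice (n = 3 per group). Mitochondrial genes lie higher in every E4H mouse than in any E3H mouse, and complement, MHC class I, vascular, matrix, meningeal and immediate early genes lie lower. Such separation is not particular to the lists plotted: of all 39 lists, 5 lie higher in this way and 10 lower. In every E2H mouse, too, mitochondrial and myelin genes lie higher than in any E3H mouse, and vascular and meningeal genes lower.

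Among antigen presentation and complement genes the E4H mice lay lower. Of 25 interferon response and MHC class I genes, 8 were lower at the unadjusted limit and none higher (median -0.20), and H2-D1 passed the adjusted p. H2-K1, the second classical class I heavy chain, had 38.4, 40.0 and 40.4 CPM in E3H and 33.1, 30.4 and 33.6 in E4H (adjusted p = 0.285), and Tap2, of the peptide transporter that loads class I molecules, had a log2 fold change of -0.43 (adjusted p = 0.31). The count of 8 became 3 without E3H replicate 1, 4 without E3H replicate 2, 5 without E4H replicate 2 or 3, 6 without E4H replicate 1 and 9 without E3H replicate 3, with medians of -0.29 to -0.16. In PS19 mice the same list had a median of 0.26 and no member at the unadjusted limit. Of 17 complement genes 15 were tested and 3 were lower: C4b, at 58.5, 64.8 and 64.3 CPM in E3H and 47.3, 46.4 and 52.2 in E4H (adjusted p = 0.107), C3, with a log2 fold change of -0.96 (adjusted p = 0.303), and C1qa, with -0.22 (adjusted p = 0.496).

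Microglial genes had small negative medians, and their summed levels overlapped between the lines. The 14 homeostatic microglia genes had 2 members lower at the unadjusted limit and a median of -0.07, 11 of them being negative, and the 18 disease-associated microglia genes 1 lower and a median of -0.08. Of all genes, 3.34% were lower at that limit. Summed, the homeostatic list took 494 to 529 CPM in E3H and 483 to 509 in E4H. The disease-associated list took 1483 to 1526 CPM in E3H and 1418 to 1570 in E4H. No homeostatic gene was lower at that limit without E3H replicate 3, E4H replicate 1 or E4H replicate 2. The disease-associated count was 1 to 3 with a mouse left out. Among 56 plaque-induced genes, which were defined in amyloid models, 2 were higher and 10 lower, 47 of the 56 were negative and the median was -0.07. With a mouse left out, 8 to 10 were lower. The 2 that passed the adjusted p, Serpina3n and H2-D1, went opposite ways. The 29 Alzheimer risk genes had 1 higher and 2 lower (5 lower without E3H replicate 2) with a median of -0.01, and the 5 tested of 8 CCL21 and CCR7 genes had none (median -0.21). In PS/E4H against PS/E3H the microglial medians were positive. There 5 of the 14 homeostatic genes were higher (median 0.172) and none of the disease-associated genes (median 0.146), where 2.94% of all genes were higher. Of the 56 plaque-induced genes, 8 were higher and none lower there, and 52 were positive (median 0.185).

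Genes of lipid handling, to which APOE itself belongs, differed little. Of 27 APOE receptor and lipid transport genes 26 were tested, and 2 were lower at the unadjusted limit with a median of -0.002. Their sum did not overlap, at 2919.8 to 2961.2 CPM in E3H and 2860.5 to 2913.6 in E4H. Pltp, the phospholipid transfer protein, had the smaller p of the 2 lower genes, with 82.4, 83.0 and 81.4 CPM in E3H and 69.9, 70.9 and 57.7 in E4H (adjusted p = 0.31). Of 24 cholesterol synthesis genes 2 were lower, with a median of -0.02, and of 36 fatty acid metabolism genes 1 was higher and 1 lower, with a median of -0.01.

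Activity-dependent genes lay lower in E4H, with E4H replicate 3 the lowest mouse. Of 18 immediate early genes 7 were lower at the unadjusted limit (median -0.35), and without that mouse 9 were lower and 1 higher (median -0.20). The number lower was 4 without E3H replicate 1 or 2, 5 without E3H replicate 3, and 10 without E4H replicate 1 or 2. Egr4, a zinc finger transcription factor, had 18.05, 17.6 and 17.96 CPM in E3H and 14.5, 13.9 and 10.4 in E4H (adjusted p = 0.374). The summed level was 872 to 1009 CPM in E3H and 492 to 836 in E4H. In PS19 mice none of the 18 reached the unadjusted limit in the same contrast and the median was 0.12. Of 29 neuronal and synaptic genes, 1 passed the unadjusted limit, Npy, the neuropeptide Y gene, with 29.2, 23.5 and 26.5 CPM in E3H and 37.6, 39.2 and 32.6 in E4H (adjusted p = 0.21), and the median was 0.02. Of 20 heat shock and unfolded protein genes, 3 were higher, all of the amino acid and stress response: Atf4, at 93.5, 101 and 93.1 CPM against 118, 122 and 119 (log2 0.31, adjusted p = 0.0906), Asns (log2 0.22) and Chac1 (log2 0.36).

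Other lists held few genes at the unadjusted limit, and most of their counts moved with single mice. Of 12 striatal genes 2 were lower (median -0.08), and 0 to 4 with a mouse left out, with 0 without E3H replicate 3, E4H replicate 2 or E4H replicate 3. Of 13 cortical and hippocampal genes 1 was higher (0.02). Of 12 tested hypothalamic peptide genes 1 was lower (-0.30); without E4H replicate 2, the mouse with the low sum, 1 was higher, none was lower and the median was 0.09, and without E4H replicate 1 or 3 there were 2 lower. Of the 7 cerebellar, 5 pituitary and 14 choroid plexus and ependymal genes tested none passed in either direction (medians 0.01, -0.28 and -0.17). Without E4H replicate 1, the mouse with the high sums, 7 of the 14 choroid plexus and ependymal genes were lower (median -0.39) and 2 pituitary genes (median -1.14), where 2.89% of all genes were lower. Of 8 tested blood cell genes 2 were lower (-0.36), 5 without E3H replicate 3 and 1 when E3H replicate 1 or 2 or E4H replicate 1 or 2 was left out. Of 15 circadian clock genes 2 were lower (-0.07), of 15 glucocorticoid and fasting genes 2 were higher and 1 lower (0.04), with 5 higher without E4H replicate 3, of 27 DNA damage and p53 genes 1 higher (-0.03), and of 6 tested sex-linked genes 1 higher, Ddx3y, which is the count of E4H replicate 3 alone. Scaling by DESeq2 size factors or upper quartiles moved the median of all genes to -0.001 and 0.004; the medians of the astrocyte markers and of the APOE receptor list changed sign with it, to at most 0.006, and no other list described here did.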

How the data were processed

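Forebrain RNA of 21 mice was sequenced as stranded poly(A) libraries. The authors trimmed reads with cutadapt, aligned them with HISAT2 to GRCm38 (GRCm38.p5 per the labels) and quantified genes with StringTie; tool versions, and how whole counts were derived, are not given in the sources used here. The deposited table holds counts per gene without normalization, and a second deposited table the authors' FPKM values, used for levels between genes and for an alternative. Symbols and positions are from GENCODE M21, which names 55141 of 55401 genes.

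Counts were fitted with edgeR 4.0.16 in R 4.3.3 on the 6 mice alone (TMM, filterByExpr with a minimum count of 10 and total of 15, glmQLFit and glmQLFTest, no covariate). Called genes had an adjusted p under 0.05 and a fold of at least 2. CPM use TMM factors over all 21 mice. DESeq2 1.42.0, limma 3.58.1, other scalings, filters, samples and a replicate block were alternatives, with genes summed over shared loci added after the data were seen. A group without a count was set to 3 counts per library for a bound; such bounds cover counting error only. The interval of the Gm20186 ratio is an exact 95% one. The 50-base windows are those of GENCODE transcripts. Code was tested on simulated data.

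Named were every gene past the adjusted p, up to 3 members of a list by unadjusted p, the Serpina3 and EPS8 families, sex-linked genes, and Apoe with its neighbours. Glcci1, Adam1a, Mapkapk5, Umad1 and the E2H and PS19 examples were picked after their values were seen. Members and the 39 lists were chosen with earlier results of these data known. Same-numbered mice of E3H and E4H did not deviate together, so numbers were not used as pairs. Results for some members of these lists are not reported here.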

Additional observations from a re-analysis of the deposited data

Results flagged for a closer look

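Mice far from the rest of their group were looked for in the 2 PS19 groups, each of 4 mice; groups of 3 were not examined. Over 68 combinations of gene and group, 5 had such a mouse, by a limit that gives about 1 in 20 for normally distributed values. Where 3 mice are at 0, any count in the remaining mouse passes the limit, so that rate does not hold for such genes. Gm45062 was at 36.8 CPM in PS/E3H replicate 4 and at 40.2 CPM in PS/E4H replicate 3, with the other 3 mice of each group at 0. In the same 2 mice Glcci1, which shares most of its sequence, was at 7.15 and 1.60 CPM, against 38.1 to 50.7 CPM in the other 6. Gm42878 was at 4.90 CPM in PS/E4H replicate 4, with the next mouse at 0.453. Gm13601 was at 0.141 CPM in that mouse and at 0 in the other 3. Vwf was at 37.5 CPM in PS/E3H replicate 4, with the next mouse at 22.1. No difference between the contrasts with and without tau passed the adjusted p.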

How the results depend on the processing

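The 21 calls became 38 with DESeq2, which held all 21, 13 without a low-count filter, 11 with limma on log2(FPKM + 1), 34 without a fold limit, 13 against a fold of 1.5, and 13 to 17 with a mouse left out. With the replicate number as a block, 12 were called, 11 of them among the 21. For PS/E4H against PS/E3H, 4 calls became 20 with DESeq2, 2 without a filter, 10 with all 21 mice in a fit, 2 with limma on log2(FPKM + 1), 2 against a fold of 1.5, 0 with the replicate block, and 0 to 6 with a mouse left out. For E2H against E3H, 30 calls became 68 with DESeq2 and 21 to 36 with a mouse left out; for E4H against E2H, 39 became 77 with DESeq2, 25 with the replicate block and 26 to 40 with a mouse left out. The interaction gave 0 in edgeR, 9 in DESeq2 and 0 to 3 with a mouse left out. The cause of these differences was not tested. Summing overlapping genes turned Gm45062 to a log2 fold change of -0.25. No gene among the 34 reversed under any other alternative. With a mouse left out, 15 to 18 of the 34 kept an adjusted p under 0.05. The 3 mice a group limit what small differences can be seen. By its sex-linked genes, 1 of the 3 E4H mice was of the other sex than all the rest, and the part of sex was not tested.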
